A study of Mus musculus with 12 samples.

Results

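Transcripts of 9 genes for myelin sheath proteins and myelin lipid enzymes (Mbp, Mag, Mog, Mobp, Cnp, Cldn11, Mal, Ugt8a and Fa2h) were followed in forebrain RNA from juvenile and adult Shank3-mutant mice. The 9 genes were taken by symbol, and all were found among the 19268 genes of the table. They were selected on measured values, namely the difference between ages in these same libraries, so their differences between ages are given below as a description, without a test. Comparisons between the genotypes within each age, which the choice did not use, were tested.

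The mice were male C57BL/6J at postnatal day 25 (P25, juvenile) or postnatal day 60 (P60, adult), and were wild-type (WT) or homozygous for a Shank3 allele from which exons in the middle of the gene had been removed (KO). Shank3 encodes a scaffold protein of excitatory synapses, and the deletion was carried by every cell rather than by oligodendrocytes alone. The tissue was whole forebrain without the olfactory bulb, and there were 3 libraries, from 3 mice by the study's account, for each combination of age and genotype (P25-WT, P25-KO, P60-WT and P60-KO). Values are normalized counts, that is, read estimates that the authors had scaled across all 12 libraries, which summed to between 30568259 and 32348554 per library. The number of reads behind them is not known.

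Myelin is the membrane that oligodendrocytes wrap around axons in the brain. Its compact part is held together by basic and proteolipid proteins on the faces of the membrane, its inner and outer margins carry adhesion molecules and tight junctions, and its lipid is rich in galactosylceramide, sulfatide and cholesterol. In the mouse forebrain most of this membrane is laid down in the weeks after birth, under transcription factors that include Olig2, Sox10 and Myrf.

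The RefSeq sequences upstream of their starts (assembly GRCm38.p6) were searched for short words recognised by Sox factors (ACAAAG and AACAAT), by Myrf (CTGGNAC, a short form of its site) and by basic helix-loop-helix factors such as Olig2 (CAGCTG, an E-box), on both strands of the 250 bases before each start. The search covered 9 windows, which belong to 7 of the 9 genes. Mbp and Fa2h were not among the genes searched, so whether their upstream sequences hold these words was not tested. The stretches printed here were chosen because they hold a Myrf word (Mag, Cnp and Mog) or the most Sox words (Mobp), and none reaches into the annotated gene. Capitals mark the matched words in either orientation, CTGGNAC in the sequences of Mag, Cnp and Mog and ACAAAG in that of Mobp. Each is written 5′ to 3′ on the strand of its gene.
Mag, chr7:30914923-30915172, minus strand: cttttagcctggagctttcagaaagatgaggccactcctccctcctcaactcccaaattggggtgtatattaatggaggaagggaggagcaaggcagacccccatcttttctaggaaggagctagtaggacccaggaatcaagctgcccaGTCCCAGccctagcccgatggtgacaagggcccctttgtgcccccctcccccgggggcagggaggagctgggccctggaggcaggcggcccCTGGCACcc
Cnp, chr11:100574689-100574903, plus strand: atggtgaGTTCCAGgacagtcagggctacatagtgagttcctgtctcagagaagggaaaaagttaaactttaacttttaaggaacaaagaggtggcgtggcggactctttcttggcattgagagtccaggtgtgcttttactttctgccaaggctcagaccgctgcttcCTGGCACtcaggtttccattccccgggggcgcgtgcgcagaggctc
Mog, chr17:37023399-37023648, minus strand: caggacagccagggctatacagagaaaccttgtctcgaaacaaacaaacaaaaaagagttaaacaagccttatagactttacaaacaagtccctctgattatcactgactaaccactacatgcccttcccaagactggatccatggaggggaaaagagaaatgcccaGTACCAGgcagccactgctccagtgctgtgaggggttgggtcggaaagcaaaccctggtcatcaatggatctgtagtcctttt
Mobp, chr9:120149492-120149706, plus strand: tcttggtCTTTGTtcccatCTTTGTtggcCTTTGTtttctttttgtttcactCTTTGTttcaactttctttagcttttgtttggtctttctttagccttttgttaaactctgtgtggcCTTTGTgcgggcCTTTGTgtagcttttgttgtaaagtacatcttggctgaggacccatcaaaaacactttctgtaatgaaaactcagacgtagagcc

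The Mobp window held 6 matches to ACAAAG, all read as CTTTGT on the strand of the gene. Of 32841 promoter windows of that length, 16.5% held at least 1 match to this word and 1 window, or 0.00304%, held 6. That window is the Mobp window itself, which is printed for its number of matches, so the share is a description of the choice. The printed Mag window and the Cnp window each held 2 matches to CTGGNAC and the Mog window held 1, where 1.58% of all windows held at least 2 and 16.1% at least 1. A single match to ACAAAG also lay in the printed Mag and Cnp windows and is not capitalised. Of the 3 Mag windows, which belong to different annotated starts, 2 held these matches and 1 held none of the words searched. Neither AACAAT (in 9.43% of all windows) nor CAGCTG (in 13%) was found in any window of the 7 genes, and Cldn11, Mal and Ugt8a held none of the words searched. These matches describe letters in a window and do not show binding.

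Shank3 was examined before the myelin genes because it was the gene targeted. In P25-KO mice it had 4891, 4901 and 5729 normalized counts and in P25-WT mice 10401, 11683 and 10254. In P60-KO mice it had 5186, 4535 and 5021 and in P60-WT mice 10310, 8936 and 10142. At both ages every mutant value was under every WT value (two-sided exact permutation test, p = 0.1, which is the lowest p that a 3 by 3 comparison can give). Forebrain markers were present in every library, with a summed level of the 6 markers from 7540 to 9010 normalized counts. The summed level of 8 hindbrain and cerebellum markers was 568 to 944 in 11 libraries and 1730 in the remaining library, P60-WT replicate 2. Schwann cell and peripheral myelin markers were low, at 842 to 1520 over the 6 markers found, against 146000 to 378000 over the 9 myelin genes.

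The myelin genes were lower in adult than in juvenile forebrain in both genotypes. Together they made up 1.08% ± 0.081 of all normalized counts in P25-WT mice, 0.982% ± 0.0974 in P25-KO mice, 0.506% ± 0.0306 in P60-WT mice and 0.517% ± 0.0328 in P60-KO mice (SD, n = 3 each). Every one of the 9 genes had all its P60 libraries below all its P25 libraries, in WT and in KO mice. In bulk tissue, fewer oligodendrocytes and less myelin RNA per oligodendrocyte cannot be told apart.

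**Figure D1:**
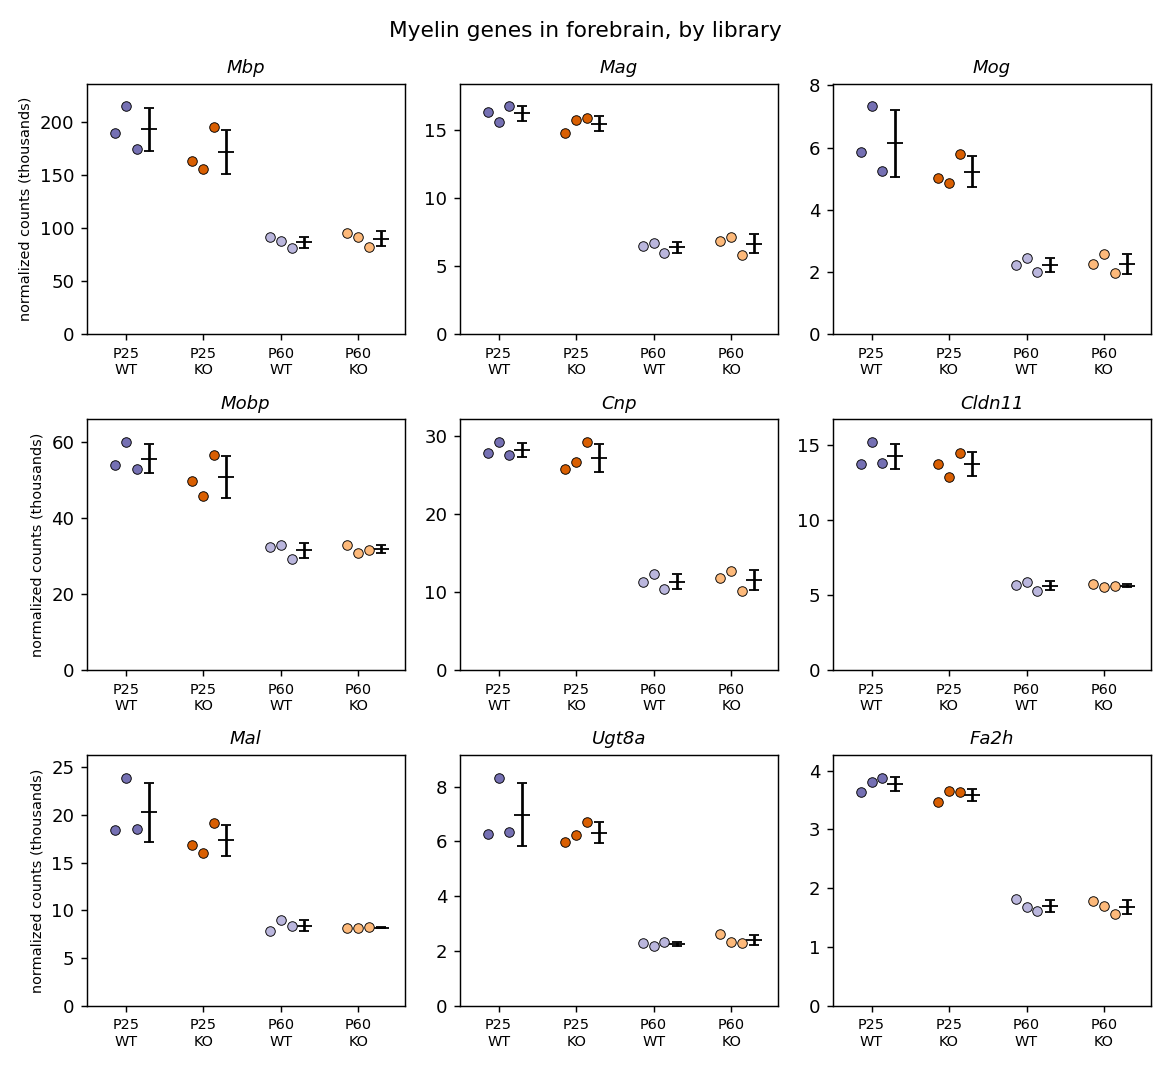
Normalized counts (linear axes from 0) of the 9 myelin genes in each library, with 3 points per group and the group mean ± SD beside them. In every panel all P60 points lie below all P25 points, while the KO and WT points of the same age overlap.

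Among the proteins of compact myelin, Mbp was the most abundant of the 9 transcripts. It encodes the basic protein that draws the cytoplasmic faces of the membrane together. The P25-WT libraries had 189670, 214530 and 174750 normalized counts of Mbp, and the P25-KO libraries had 163190, 155750 and 195310. At P60 the WT libraries had 91142, 87713 and 81041 and the KO libraries 95677, 91591 and 82024. The juvenile libraries stood well above the adult ones, and within each age the KO and WT values were interleaved. The P60 mean was 44.9% of the P25 mean in WT mice and 52.4% in KO mice, a log2 difference of -1.15 ± 0.084 (SE) and -0.93 ± 0.086, respectively.

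Mobp, which encodes another small basic protein of the cytoplasmic face, differed least between the ages. Its P25 libraries had 53884, 59854 and 52874 normalized counts in WT mice and 49675, 45722 and 56532 in KO mice. Its P60 libraries had 32283, 32950 and 29261 in WT mice and 32965, 30769 and 31554 in KO mice. No adult value reached the lowest juvenile value, but the gap was narrow in KO mice, where the lowest P25 library was 1.39 times the highest P60 library. The P60 mean was 56.7% of the P25 mean in WT mice (log2 difference -0.82 ± 0.074, SE) and 62.7% in KO mice (-0.67 ± 0.072).

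Mal, a small raft-associated proteolipid involved in membrane trafficking to the sheath, had 18419, 23854 and 18514 normalized counts in P25-WT mice and 16851, 16022 and 19141 in P25-KO mice. At P60 it had 7862, 8976 and 8374 in WT mice and 8132, 8126 and 8245 in KO mice. The P25-WT replicate 2 library stood above all the others, and the P60-KO libraries were nearly level with each other. The adult mean of Mal was 41.5% of the juvenile mean in WT mice and 47.1% in KO mice.

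The adhesion, surface and junction genes of the sheath showed lower adult levels too. Mag encodes an immunoglobulin-family protein of the membrane that faces the axon. It had 16347, 15611 and 16752 normalized counts in P25-WT mice, 14831, 15726 and 15903 in P25-KO mice, 6490, 6734 and 5946 in P60-WT mice and 6882, 7176 and 5857 in P60-KO mice. The juvenile libraries were close together and the adult libraries lay far below them. The P60 mean of Mag was 39.4% of the P25 mean in WT mice and 42.9% in KO mice.

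Mog, a glycoprotein of the outermost surface of the sheath, had 5842, 7324 and 5246 normalized counts in P25-WT mice and 5031, 4861 and 5793 in P25-KO mice. The adult libraries had 2213, 2451 and 1992 in WT mice and 2259, 2570 and 1950 in KO mice. Replicate spread was widest for Mog among the 9 genes in P25-WT mice, where its coefficient of variation was 17.4%. The log2 difference between ages was -1.46 ± 0.13 (SE) in WT mice and -1.21 ± 0.099 in KO mice.

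Cnp, the cyclic nucleotide phosphodiesterase of non-compact myelin, had 27774, 29172 and 27552 normalized counts in P25-WT mice and 25704, 26633 and 29186 in P25-KO mice. In adults it had 11290, 12266 and 10333 in WT mice and 11740, 12687 and 10114 in KO mice. Within each age the KO libraries spanned the WT mean, and the adult values lay in a separate band. Its P60 mean was 40.1% of the P25 mean in WT mice and 42.4% in KO mice.

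Cldn11 encodes the claudin of the tight junctions that seal the myelin lamellae. The P25 libraries had 13738, 15196 and 13799 normalized counts in WT mice and 13772, 12902 and 14500 in KO mice, and the P60 libraries 5672, 5880 and 5281 in WT mice and 5748, 5538 and 5572 in KO mice. The genotypes overlapped at both ages and the ages did not overlap. Cldn11 is also expressed by meningeal fibroblasts. Of 7 meningeal and fibroblast markers, 5 had age differences below 0 in WT mice and 4 in KO mice. The highest were 0.22 and 0.067, and the medians -0.06 and -0.37. In each genotype 3 passed the adjusted threshold as lower at P60 (limma), where 4.99% of all genes did in WT and 11.3% in KO mice. These were Col1a1, Col1a2 and Igf2 (log2 differences of -1.18, -0.84 and -0.85 in WT mice and -1.24, -1.11 and -0.80 in KO mice). The summed level of those 7 markers was 6650 to 7430 in P25-KO, 6800 to 6980 in P25-WT, 4020 to 4130 in P60-KO and 3820 to 4990 in P60-WT libraries, and none was at 0. Their part in the Cldn11 level was not tested.

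The lipid enzymes included the gene with the largest difference between ages. Ugt8a encodes the galactosyltransferase that makes galactosylceramide from ceramide. It had 6272, 8312 and 6360 normalized counts in P25-WT mice, 5976, 6243 and 6725 in P25-KO mice, 2275, 2182 and 2336 in P60-WT mice and 2620, 2321 and 2298 in P60-KO mice. Apart from the high P25-WT replicate 2, the libraries of each age lay close together, and the adult mean was 32.4% of the juvenile mean in WT mice and 38.2% in KO mice. On the log2 scale this was a difference of -1.61 ± 0.11 (SE) in WT mice and -1.39 ± 0.068 in KO mice.

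Fa2h, the fatty acid hydroxylase that supplies the hydroxylated acyl chains of these galactolipids, had 3636, 3801 and 3873 normalized counts in P25-WT mice and 3461, 3655 and 3628 in P25-KO mice. At P60 it had 1809, 1680 and 1614 in WT mice and 1780, 1700 and 1556 in KO mice. Its replicates were tight in every group, and its P60 mean was 45.1% of the P25 mean in WT mice and 46.9% in KO mice. The ages did not overlap in either genotype.

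Over the 9 genes the median log2 difference between ages was -1.32 in WT mice and -1.21 in KO mice, beside medians of -0.0012 and 0.0057 over all 17581 and 17596 genes tested. The non-overlap of the ages, seen for 9 of 9 genes, was seen in the lower direction for 18.4% of all genes in WT mice and 20.5% in KO mice. These shares are given for scale only, since the genes had been chosen for their age difference.

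**Figure D2:**
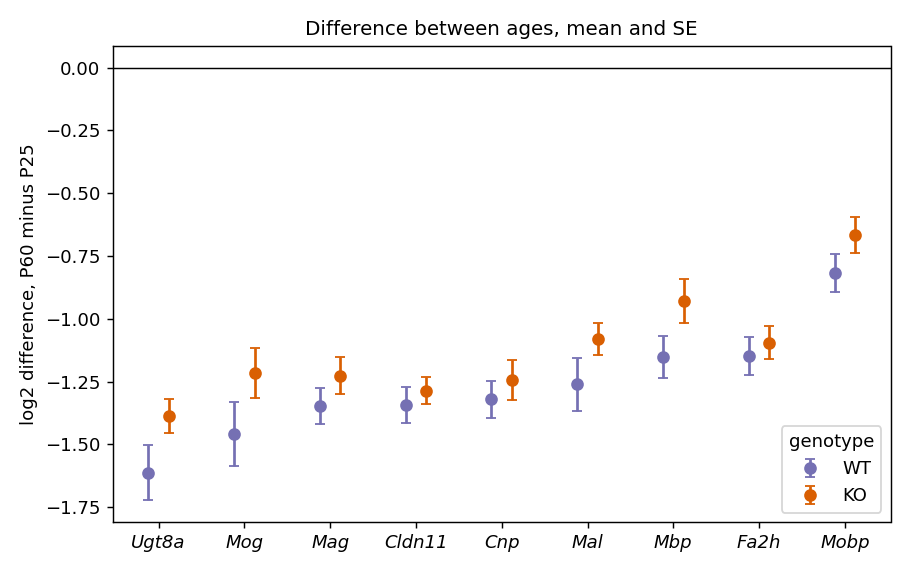
Log2 difference between P60 and P25 for the 9 myelin genes, ordered by the WT value, in WT and KO mice (points, estimate; bars, SE). All points lie below 0, from -1.61 for Ugt8a to -0.82 for Mobp in WT mice and from -1.39 to -0.67 for the same genes in KO mice.

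The genes did not fall in proportion. Relative to the mean of the other 8 on the log2 scale, Mobp stood at 1.81 ± 0.018 in P25-WT and 2.32 ± 0.027 in P60-WT libraries, and at 1.80 ± 0.079 and 2.31 ± 0.099 in the corresponding KO libraries (SD, n = 3). Ugt8a moved the other way, from -1.57 ± 0.13 to -1.95 ± 0.13 in WT mice and from -1.58 ± 0.047 to -1.88 ± 0.096 in KO mice. In each genotype the P60 ratios of both genes lay outside the range of the P25 ratios. The 9 transcripts together thus held relatively more Mobp and relatively less Ugt8a at P60.

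Per kilobase of annotated exon, Mbp ranked highest in every group, with 23758 ± 2474 normalized counts per kilobase in P25-WT and 10665 ± 632 in P60-WT libraries (SD, n = 3). Cnp and Mobp followed at P25, at 11950 ± 372 and 11847 ± 805 per kilobase in WT mice, and did not differ beyond their spread. At P60 their order was reversed and separated, with Mobp at 6719 ± 419 and Cnp at 4793 ± 410 per kilobase in WT mice. Cldn11, Mal and Mag lay next to each other, between 6241 and 7617 per kilobase at P25 and between 2619 and 3025 at P60 as group means, with ranges that overlapped in part. Mog came below them, at 3602 ± 628 and 1302 ± 135 per kilobase in P25-WT and P60-WT mice. Ugt8a and Fa2h were lowest, at 1677 ± 277 and 1513 ± 48.7 per kilobase in P25-WT mice and 544 ± 18.7 and 683 ± 40.0 in P60-WT mice, so that Fa2h overtook Ugt8a between the ages. The ranges of these genes overlapped at P25 and were separate in P60-WT mice, while in P60-KO mice they still overlapped.

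No myelin gene differed between KO and WT mice at P25 by limma. All 9 KO means were lower, with log2 differences from -0.22 (Mog) to -0.05 (Cnp and Cldn11) and a median of -0.13, beside 53.4% of all 17515 genes tested that were below 0 and a median of -0.0082 over them. None reached an unadjusted p-value of 0.05, which 1.36% of all genes tested did. The KO and WT libraries overlapped for every member, whereas 4.76% of all genes had groups that did not overlap. Among all genes 1, Shank3, passed the adjusted threshold (0.00571%).

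The largest difference was that of Mog, whose KO level was 0.858 times the WT level (95% confidence interval 0.706 to 1.04, limma adjusted p = 1.0). For Mal the ratio was 0.860 (0.721 to 1.03), for Mbp 0.887 (0.753 to 1.05) and for Mobp 0.910 (0.791 to 1.05). The tightest interval was that of Mag, at 0.954 times (0.863 to 1.05). The lower bound of 0.706 for Mog was the lowest of the 9, so a KO level below that share of the WT level lay outside every interval.

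These differences depended on single libraries. Leaving out 1 of the 6 juvenile libraries moved the median from -0.13 to between -0.08 (without P25-WT replicate 2) and -0.18 (without P25-KO replicate 3), with -0.09 without P25-KO replicate 2, and each of the 9 remained below 0 throughout. Without the high P25-WT replicate 2 the 9 values ran from -0.10 (Mag) to -0.002 (Ugt8a). Without P25-KO replicate 3, Mbp (-0.27, limma unadjusted p = 0.0257), Mobp (-0.22, 0.0345) and Mal (-0.29, 0.0467) were under an unadjusted p-value of 0.05, and without P25-WT replicate 3, Mog (-0.33, 0.0203) and Mal (-0.28, 0.046) were. With all 12 libraries in the fit Mal was as well (-0.22, 0.0368). No member passed the adjusted threshold in any of these fits.

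At P60 the differences between genotypes ran from -0.04 (Mal) to 0.09 (Ugt8a), with a median of 0.02 and 2 of 9 below 0, where 49.9% of all genes tested were below 0. Leaving out 1 library moved the median to between -0.039 (without P60-WT replicate 3) and 0.11 (without P60-KO replicate 3), Ugt8a to between 0.029 and 0.12, and Mbp to between 0.0024 and 0.11. The KO level of Ugt8a was 1.06 times the WT level (95% confidence interval 0.962 to 1.18, limma adjusted p = 1.0), and that of Cldn11 was 1.002 times (0.925 to 1.09). No member reached an unadjusted p-value of 0.05, as 2.5% of all 17610 genes tested did. All KO and WT groups overlapped, while 7.79% of all genes had groups that did not. Shank3 was again the single gene past the adjusted threshold (0.00568%).

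**Figure D3:**
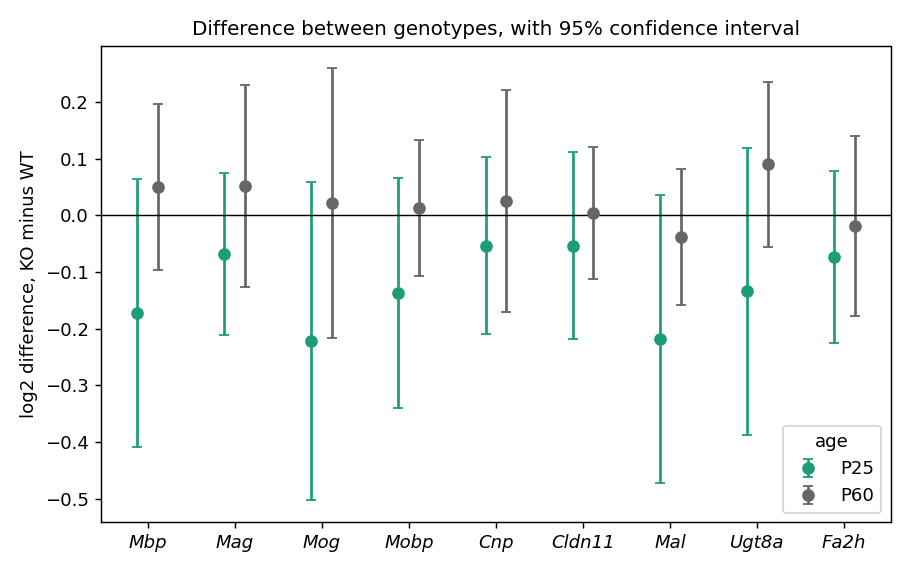
Log2 difference between KO and WT mice for the 9 myelin genes at P25 and P60 (points, estimate; bars, 95% confidence interval). All P25 estimates lie below 0 and the P60 estimates lie between -0.04 and 0.09, and all 18 intervals include 0.

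The difference between the genotype effects at the 2 ages, a genotype by age interaction, was fitted over all 12 libraries. It equals the age difference in KO mice minus that in WT mice, and so is built from the values that had chosen the genes. It is therefore given for them as a description, without a test. The estimates were above 0 for all 9 genes, where 48.2% of all genes were below 0, with log2 values from 0.05 (Fa2h) to 0.24 (Mog) and a median of 0.15. For Mbp the value was 0.22 ± 0.13 (SE). Leaving out 1 library moved the median to between 0.09 (without P25-WT replicate 2) and 0.23 (without P25-KO replicate 3), and it was 0.10 without P60-WT replicate 3. The ranges were 0.09 to 0.29 for Ugt8a, 0.011 to 0.11 for Fa2h, 0.11 to 0.35 for Mog and 0.14 to 0.32 for Mbp. Among all 17594 genes tested 0 passed the adjusted threshold (limma, 0.0%) and 288, or 1.64%, had an unadjusted p-value under 0.05.

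Within a group the 9 genes often rose and fell together from library to library. P25-KO replicate 3 was the highest of its group for 8 of 9 genes and P25-WT replicate 2 for 7, while P60-KO replicate 3 was the lowest for 6 and P60-WT replicate 3 for 7. P60-WT replicate 2, the library with the highest level of hindbrain and cerebellum markers, was the highest of its group for 6. The part of those regions in its myelin levels was not tested. Over the 12 libraries the 36 pairwise correlations among the genes were 0.967 to 0.997 (Pearson, log2 scale), a range set by the step between ages. After the group means were subtracted they were -0.125 to 0.959 with a median of 0.564.

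In P25-WT replicate 2 the deviations differed between the genes. On the log2 scale they were 0.27 for Mog, 0.26 for Ugt8a, 0.25 for Mal and 0.16 for Mbp, but 0.012 for Fa2h and -0.06 for Mag. The GC content of the transcripts was 39.9% for Ugt8a, 49.8% for Mal, 50.4% for Mog, 54.5% for Mbp, 54.6% for Fa2h and 56.7% for Mag. Mbp and Fa2h thus had nearly the same GC content and unlike deviations. Cldn11, Mobp and Cnp deviated by 0.095, 0.11 and 0.051, at 50.9%, 51.6% and 54.7% GC. Over the 9 genes the deviation in this library and the GC content had a Pearson correlation of -0.739, while over all 17580 genes with a GC value it was 0.00961. In the other 11 libraries the correlation over the 9 genes ran from -0.741 (P60-WT replicate 3) to 0.868 (P25-WT replicate 1). The libraries of a group share its mean, so their deviations are not independent. All genes but Ugt8a lie between 49.8% and 56.7% GC, so the correlations rest heavily on Ugt8a, at 39.9%. The part of GC content in these deviations was not tested.

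**Figure D4:**
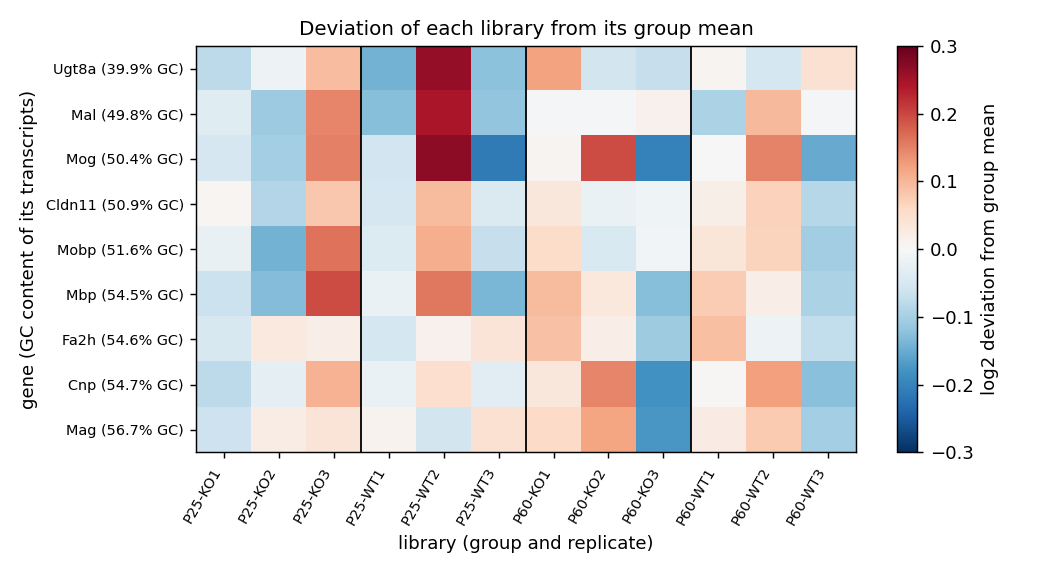
Log2 deviation of each library (columns) from its group mean for the 9 myelin genes (rows, ordered by the GC content of their transcripts). P25-WT replicate 2 is high for the upper rows and near or below 0 for Fa2h and Mag, and P60-KO replicate 3 is low for 6 genes.

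Genes whose pattern over the 12 libraries was most like the mean of the 9 included Tspan2 (r = 0.997), a tetraspanin of oligodendrocytes, and Sirt2 (0.995), a deacetylase found in myelin. Also among the closest 10 were 9630013A20Rik, Gm43118, Rnf122, Gltp, Gsn, Sema4d and Arpc1b, with r down to 0.991. Once the group means were subtracted, the closest were Spi1 (0.976), Stub1 (0.973), Slc25a17, Thap11, Ckb, Epb41l4aos, Fdx1l, Stard10, Tmem125 and Cenpb (0.938). None of these 10 was among the closest 10 before subtraction. By the same measure Mbp ranked 10 and Mag 3472 among all genes, with r = 0.505 for Mag, each of the 9 being part of the mean itself.

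Other genes of the myelin membrane were lower in adults in part. Of 20 such genes, 11 fell and 1 rose between P25 and P60 in WT mice, and 14 fell and 1 rose in KO mice (limma, adjusted over all genes). Over all genes tested 4.99% fell and 3.66% rose in WT mice, and 11.3% fell and 9.37% rose in KO mice. These shares, which serve for the lists below too, moved with the libraries left out and the scaling, as given at the end. The list counts were not repeated under those settings. The lists were written with these results known, and values are log2 differences, WT before KO. Pllp, a proteolipid of the sheath, fell (-1.35 and -1.15). Hapln2, a link protein of the matrix at nodes of Ranvier, rose (0.52 and 0.60). Gpm6b and Tppp, both abundant, gave log2 differences of -0.06 and -0.06 in WT mice and -0.06 and -0.04 in KO mice and did not pass the test.

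The lipid pathways that feed the sheath were examined as lists. Of 22 genes for sphingolipids and very long chain fatty acids, 8 fell and 0 rose in WT mice, and 9 fell and 0 rose in KO mice. Gal3st1, which sulfates the product of Ugt8a to sulfatide, fell (-1.34 and -1.04), as did Gltp, a glycolipid transfer protein (-0.92 and -0.78). Fasn, the fatty acid synthase, fell as well (-0.45 and -0.49). Scd2 and Psap, the most abundant of this list, gave -0.12 and 0.0031 in WT mice and did not pass the test, nor did Galc, the lysosomal enzyme that degrades galactosylceramide (0.28 in WT and 0.21 in KO mice).

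Of 19 cholesterol synthesis enzymes, 14 fell in WT mice and 17 in KO mice, and none rose. Over all genes tested 4.99% fell in WT mice and 11.3% in KO mice. Among those that fell were Mvd (-1.09 and -0.93), Fdps (-0.87 and -0.77) and Hmgcs1 (-0.86 and -0.79). The median over the list was -0.56 in WT mice and -0.46 in KO mice, beside -1.32 and -1.21 for the 9 myelin genes. The 9 genes had been chosen for this difference, so their larger median is a description of the choice.

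Among 12 oligodendrocyte transcription factors 6 fell in WT mice and 8 in KO mice, and none rose. Zfp488 (-1.0 and -0.93) and Olig1 (-0.78 and -0.70) fell. Myrf, which is needed for myelin gene expression, gave -0.28 in WT mice (adjusted p = 0.132, limma) and fell in KO mice (-0.25). The differences of Zeb2 were 0.09 and 0.10 and did not pass the test.

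Other genes of mature oligodendrocytes were mixed in direction. Of 20, 4 fell and 2 rose in WT mice, and 7 fell and 4 rose in KO mice, with medians of -0.18 and -0.07. Gsn, the actin-severing protein gelsolin, fell (-1.80 and -1.79), with a larger estimate than any of the 9 myelin genes. Pex5l and Anln rose, by 0.52 and 0.45 in WT mice and 0.53 and 0.79 in KO mice, whereas Enpp2 gave 0.06 and 0.01 and Plekhb1 -0.0025 and 0.18, none past the threshold. Trf, the transferrin of oligodendrocytes, fell (-0.44 and -0.30).

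Genes of earlier stages of the lineage fell in part. Of 11 genes of newly formed oligodendrocytes that were measured, 7 fell in WT mice and 10 in KO mice, and none rose. Enpp6 (-1.41 and -1.23), Cnksr3 (-1.40 and -1.18) and Fyn (-0.54 and -0.57) fell, while Bcas1 gave -0.14 and 0.05 and did not pass the test. Of 12 precursor genes, 5 fell in WT mice and 6 in KO mice, and none rose. Gpr17, a receptor of committed precursors, fell (-1.22 and -1.19), as did Neu4 (-0.83 and -0.83) and Cspg5 (-0.51 and -0.49), while Ptprz1 gave 0.04 and 0.02 and did not pass the test.

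**Figure D5:**
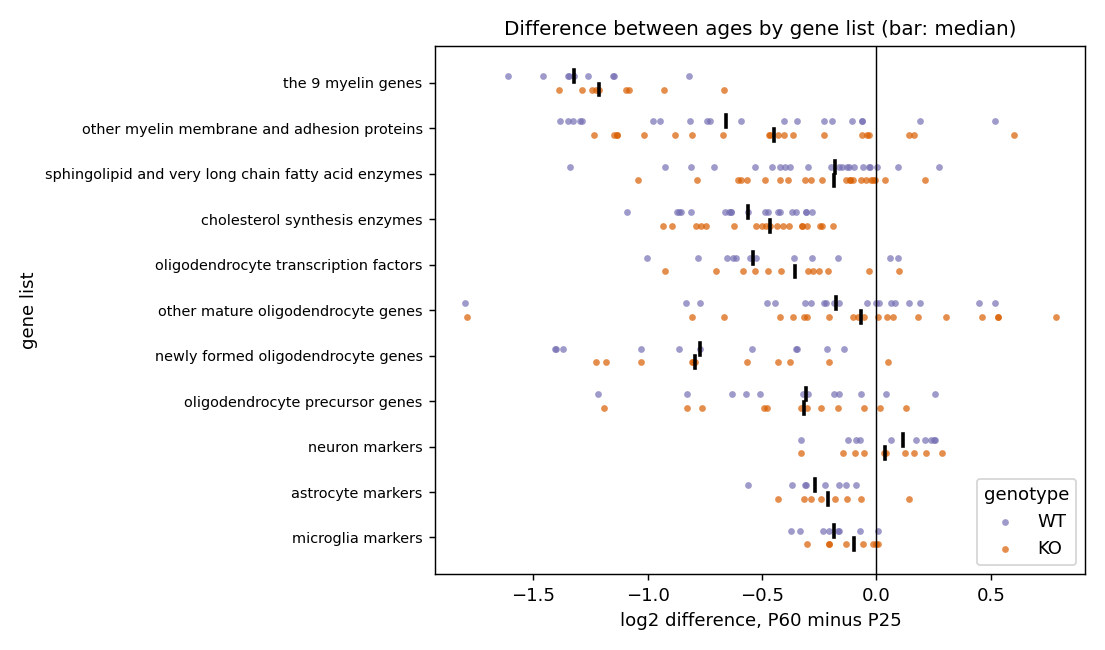
Log2 difference between P60 and P25 for each gene (points) of 11 gene lists in WT and KO mice, with the median of each list as a bar. The 9 myelin genes have medians of -1.32 and -1.21, the newly formed oligodendrocyte genes -0.77 and -0.79, and the neuron markers 0.12 and 0.04.

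Markers of the other cells of the tissue were examined as well. Of 10 neuron markers, Slc17a7 fell (-0.33 and -0.33) and Snap25 rose (0.25 and 0.29), and Map2 rose in KO mice (0.21, against 0.26 with an adjusted p of 0.0556 by limma in WT mice). The summed level of the neuron markers was 281000 to 301000 normalized counts in all groups. Of 8 astrocyte markers, 4 fell in each genotype, among them Gfap (-0.56 and -0.43) and Slc1a2 (-0.31 and -0.29), and the summed level was 134000 to 151000 at P25 and 113000 to 126000 at P60. None of 8 microglia or 7 endothelial markers passed the test in either genotype, with summed levels of 7270 to 9830 and 4560 to 7880. Of 6 choroid plexus markers 1 rose in WT mice (Kl, 0.72) and 3 rose in KO mice (Kl 0.51, Otx2 0.50 and Kcnj13 0.74). Of 6 forebrain markers 1 fell in each genotype and 1 rose in KO mice. Hindbrain and cerebellum markers, low in level, had medians of 0.37 in WT and 0.45 in KO mice. Of these, 0 passed the test in WT mice and 1 rose in KO mice. No marker of these lists was at 0 in every library, and their part in the myelin levels was not tested.

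Between the genotypes none of the genes in these lists passed the adjusted threshold at P25, at P60 or in the interaction (limma). At P25, 17 of the 20 other myelin membrane genes were below 0 with a median of -0.12, and 19 of the 20 other mature oligodendrocyte genes with a median of -0.10, beside -0.0082 for all genes. Ermn and Enpp6 had the smallest unadjusted p-values in the oligodendrocyte lists, with log2 differences of -0.21 ± 0.084 (SE) and -0.22 ± 0.085 and adjusted p-values of 1.0, and were the only genes of these lists under an unadjusted p-value of 0.05, which none of the 9 myelin genes reached. KO libraries lay wholly below WT libraries at P25 for 2 of 20 other myelin membrane genes, 2 of 11 newly formed oligodendrocyte genes, 1 of 20 other mature oligodendrocyte genes, 1 of 12 transcription factors and 0 of 12 precursor genes. Over all 17515 genes tested, 437 lay wholly below in this way, and 4.76% did not overlap in either direction. Microglia markers were also below 0 for 7 of 8 at P25, with a median of -0.16. At P60 the medians of the oligodendrocyte lists lay between -0.0093 and 0.05, while endothelial markers were below 0 for 7 of 7 with a median of -0.15 and hindbrain and cerebellum markers for 6 of 6 tested with a median of -0.14.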

How the data were processed

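RNA of 12 forebrain libraries was sequenced (TruSeq kit v2). The authors quantified transcripts with Salmon 1.1.0 with GC bias correction, imported them with tximport and normalized them with DESeq2, and the deposited values are a signal on a count scale over all 12 libraries. The submitters' processing notes name GRCm38. The transcript annotation is not given in the sources used here. The values are not whole reads, so depth is unknown and no count model was fitted. A value of 0 may be a failed estimate.

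Symbols (19252 of 19268 identifiers), exon lengths and GC content came from GENCODE M21 (GRCm38). For Mbp, Mag and Mobp, 0.582%, 1.45% and 1.17% of 31-base words were shared with other genes, and no exon of the 9 genes overlapped an exon of another gene. The span of Cnp partly overlaps Dnajc7 on the opposite strand, and that of Mobp partly overlaps Gm38642 on the same strand. Mbp and Mog overlap Rpl21-ps8 and Gm22388, which are not in the table. Whether strand was used is not stated.

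KO and WT within each age, the ages within each genotype, and their interaction were compared with limma 3.58.1 (R 4.3.3, eBayes with a trend) on log2(value + 1), which understates changes of low genes. Genes with a mean of at least 10 were tested, with Benjamini-Hochberg adjustment over all of them and a threshold of 0.05. The procedure was tested on simulated data. Nothing in the labels says that libraries came from separate animals, though the study counts 3 mice per group, so p-values measure the spread between these libraries.

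The 9 genes, the lists and the tests were chosen with earlier results of these data known. Genes named were Shank3, the 9 genes, and from each list up to 3 of the highest level and up to 2 per direction with the largest difference. In addition, the 10 genes most correlated with the mean of the 9 were named, before and after subtracting group means. Some genes that this rule names are not reported here. Alternatives changed the pseudocount, minimum mean, scaling, variance model, libraries in the fit and GC and length trend, added the replicate number as a block, or left out 1 library.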

Additional observations from a re-analysis of the deposited data

How the results depend on the processing

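No myelin gene passed the adjusted threshold between genotypes at either age under any alternative. The differences between ages had chosen the genes and say nothing about stability. Removing each library's trend on GC content and length (splines with 5 degrees of freedom), an alternative added after the data had been seen, left the P25 genotype median at -0.12 and moved the age median in KO mice from -1.21 to -1.09. It moved the age difference of Mag from -1.35 to -1.19 in WT and from -1.23 to -1.09 in KO mice, that of Ugt8a from -1.61 to -1.84 and from -1.39 to -1.59, and that of Fa2h from -1.15 to -1.06 and from -1.09 to -1.01. Without the variance trend the number of genes called was 0 between genotypes at P25 and at P60, 192 between ages in WT mice and 1725 in KO mice, against 1, 1, 1521 and 3641. With all 12 libraries in the fit it was 3442 in WT mice and 2500 in KO mice. Leaving out 1 library gave 0 to 8 genes at P25 (8 without P25-WT replicate 1), 1 to 3 at P60 (3 without P60-KO replicate 1), 122 to 2403 between ages in WT mice (122 without P60-WT replicate 3 and 2403 without P25-WT replicate 2), 2093 to 3230 in KO mice (2093 without P25-KO replicate 3) and 0 to 1 in the interaction.

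Small P60 genotype differences changed sign. That of Cldn11 was -0.0078 with libraries scaled to the same median. Leaving out 1 library gave ranges of -0.0074 to 0.14 for Mag, -0.075 to 0.12 for Mog, -0.039 to 0.047 for Mobp, -0.048 to 0.12 for Cnp, -0.040 to 0.038 for Cldn11, -0.086 to 0.0095 for Mal and -0.063 to 0.034 for Fa2h. The cause was not tested. Scaling to the same total changed the split of genes higher and lower at P60 from 644 and 877 to 991 and 681 in WT mice and from 1649 and 1992 to 2108 and 1620 in KO mice. Scaling to the same median gave 726 and 637, and 1789 and 1787.

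With the replicate number as a block, 0 genes were called at P25, 1 at P60, 0 in the interaction, 1791 in WT and 2482 in KO mice. Same-numbered libraries correlated at -0.0719 to 0.166 in their deviations, and at P60 6 of 6 libraries correlated best with their own number, but not every pair exceeded 0.1, so the numbers were not taken to pair them. Depth is unknown, and 3 libraries per group limit the precision.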
